A study of Mus musculus with 6 samples.

Results

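Oxidative phosphorylation is the route by which mitochondria turn the electrons of NADH and succinate into ATP. Complex I (NADH dehydrogenase) and complex II (succinate dehydrogenase) pass electrons to ubiquinone, complex III hands them to cytochrome c, complex IV (cytochrome c oxidase) reduces oxygen with them, and complex V (ATP synthase) uses the proton gradient that results. Most subunits are encoded in the nucleus, and regulatory T cells are known for a metabolism that leans on mitochondrial respiration more than that of other helper T cells. The subunit genes described here were taken by name from the annotation of the array: symbols that start with Ndufa, Ndufb, Ndufc, Ndufs, Ndufv, Uqcr, Cox4i, Cox5, Cox6, Cox7, Cox8 or Atp5, and Sdha to Sdhd, without the Ndufaf assembly factors. This gave 82 of the 18193 genes with a single symbol. By the start of the symbol 36 were counted to complex I, 4 to complex II, 8 to complex III, 17 to complex IV and 17 to complex V. Ndufa4 and Ndufa4l2 thus stand with complex I by symbol, and not by where the protein sits. A gene with several probe sets was represented by the one with the highest mean log2 intensity over the 6 arrays, and no measured difference entered the choice.

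The cells were CD4+YFP+ T cells sorted from mouse lymph nodes, and total RNA of each sample was hybridised to an expression array. All mice carried FoxP3-GFP-hCre, a fusion of GFP and Cre driven by the gene of the regulatory T cell factor Foxp3, and the ROSA26R-YFP reporter, which marks cells in which Cre has acted. The 3 Het arrays came from Dicerwt/lox mice, which keep an intact copy of the microRNA-processing enzyme Dicer, and the 3 KO arrays from Dicerlox/lox mice, which lose both copies where Cre acts. The ages of the mice, and whether arrays A, B and C of a group are separate animals, are not given in the sources used here, so a p-value here reflects the spread among arrays, and that spread may be technical. YFP persists after Foxp3 is switched off, so the sort includes any cell that once expressed it. The comparison asks how the messenger RNAs of these cells differ without Dicer.

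Median intensities were 58.1 to 61.5 per array, and 3 arrays per group limit the precision. Dicer1 itself read 1203, 1077 and 1059 on the Het arrays (A, B, C) against 1029, 1053 and 1187 on the KO arrays (A, B, C) on its brighter probe set, with a log2 difference of -0.03. Its other probe set gave -0.52 (limma, adjusted p = 0.145). The position of either probe set with respect to the floxed exons is not known here, so they do not check the labels. The T cell gene Cd3g read 32330, 31913, 33235 in Het against 29433, 27045, 30234 in KO (log2 -0.17). Cd4 read 4694, 5177, 5809 in Het against 5298, 5161, 6651 in KO (0.12). Of 10 tested T cell markers 5 had a positive and 5 a negative difference, from -0.55 (Foxp3) to 0.76 (Ctla4), with a median of -0.05. Foxp3 read 9960, 8945, 9769 in Het against 5453, 9417, 5420 in KO, so KO B lay with the Het arrays. Markers of other cell types were higher on the B arrays: summed B cell markers (9 genes) ranged from 1168 to 2844 in Het and 2015 to 5181 in KO, and those of CD8 T and NK cells (8 genes) from 1996 to 4073 and 2424 to 10517, each highest on array B of its group. Of the 6 tested B cell markers 4 had a positive and 2 a negative difference, Fcer2a (-0.59) and Ebf1 (-0.08). Cd22 read 534, 840, 534 in Het against 1063, 2980, 1312 in KO (log2 1.37). All 6 tested markers of CD8 T and NK cells were positive. Summed myeloid markers (11 genes) ranged from 632 to 1163 in Het and 759 to 2383 in KO, again highest on the B arrays. Of the 7 tested, 5 had a positive and 2 a negative difference. Lyz2 read 51, 381, 97 in Het against 232, 1408, 441 in KO, and Cd68 38, 28, 64 against 84, 231, 186. Itgam was among those too dim to be tested, at 5.49 to 5.91. Summed plasma cell markers (6 genes) ranged from 8885 to 9154 in Het and 15076 to 20975 in KO. Xbp1 made up most of that sum, at 7251 to 7859 in Het and 12588 to 15127 in KO (limma, adjusted p = 0.027). Of the 5 tested markers 4 had a positive difference, among them Jchain at 11.5, 163, 13.6 in Het against 389, 3197, 2623 in KO. Sdc1 was negative (-0.09), and Tnfrsf17 was too dim to be tested. Of 29 tested proliferation genes 29 had a positive difference, with a median of 1.42. By limma 0 passed, and 16 had an unadjusted p under 0.05 (55.2%, beside 10.7% of all genes). Centred on each gene's mean over the 6 arrays, their median was -1.93, 0.08 and -0.30 on Het A, B and C. It was 0.36, 1.27 and 0.52 on KO A, B and C, so Het A lay far below the other arrays. The part of any of these in the subunit values was not tested.

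No subunit gene passed the test between KO and Het, and the differences were small. Of the 82 genes 78 had a log2 intensity above 4 on at least 3 arrays and were tested, and 0 were higher and 0 lower at an adjusted p under 0.05 (limma, Benjamini-Hochberg over 29507 probe sets), against 1.37% of the 13279 genes tested that were higher and 0.956% that were lower. The smallest adjusted p was 0.0847, for Uqcrfs1. At an unadjusted p under 0.05 the subunits gave 4 higher (5.13%) and 12 lower (15.4%), beside 10.7% and 11.6% of all genes. That total of 16 was 7 when Het C, KO A or KO C was dropped. It was 9 with the array letter as a block, 10 with median centring, 22 on dropping KO B and 26 with array weights. The count over all 29507 probe sets was 5630 in the main fit and moved as well. Dropping Het C gave 4690, KO A 5143, KO C 4227 and KO B 5454. The block gave 5365, median centring 5320 and array weights 6456. These are probe sets and not genes, so the share of all genes in those settings is not given. All KO arrays lay above all Het arrays for 6 subunits (7.69%) and below them for 15 (19.2%), beside 13.2% and 16.8% of all genes, so the share above was smaller than the background and the share below close to it. In bulk samples fewer cells of a type and less RNA per cell cannot be told apart. On these probe sets no subunit differed by more than 0.48 on the log2 scale, whereas 16.4% of all genes differed by more than 0.5.

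The intervals of the differences were narrow for most subunits. The 95% interval of the difference lay wholly inside a 2-fold change in either direction for 76 of the 78 tested subunits, and inside a log2 of 0.5 for 54. The exceptions to the 2-fold bound were Ndufs5 and Cox6b2. The median standard error was 0.10, against 0.13 over all genes tested. The median difference of the subunits was -0.10, with the middle of the distribution (quartiles) between -0.24 and 0.02, against a median of -0.03 for all genes. Negative values were found for 55 of the 78 (70.5%), beside 56.6% of all genes. Their probe sets were bright: 71 of the 82 genes lay above the median of the tested probe sets on every array, a median that was 301 to 319.

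**Figure D1:**
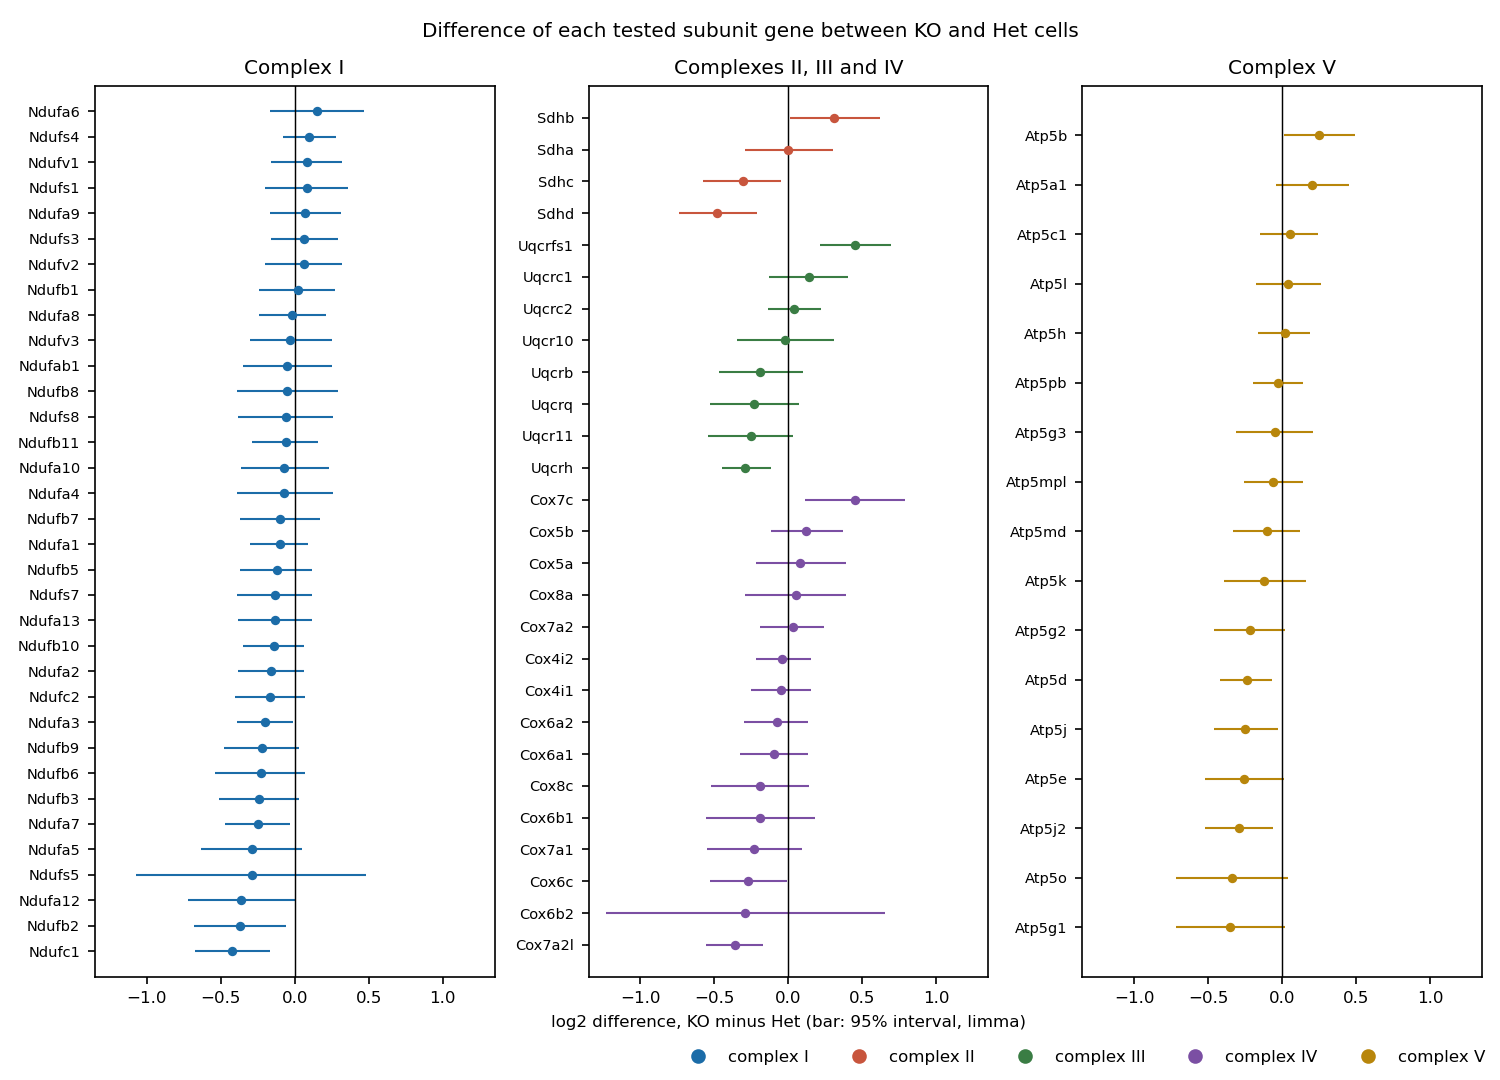
Log2 difference between KO and Het for each of the 78 tested subunit genes, ordered within each complex, with the 95% interval from limma as a bar (3 arrays per group). The points lie between -0.48 (Sdhd) and 0.45 (Uqcrfs1 and Cox7c), and the intervals of 12 genes lie below 0 and those of 4 above it.

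Complex I takes electrons from NADH through a flavin and a chain of iron-sulfur clusters. Of its 34 tested genes 0 passed, 26 had a negative difference and the median was -0.10. At an unadjusted p under 0.05 (limma) 4 were lower (11.8%, beside 11.6% of all genes) and 0 higher (beside 10.7%). The 6 measured core subunits, which belong to the conserved part that carries the flavin and the iron-sulfur clusters, lay between -0.13 and 0.08. Ndufv1, which binds the flavin, read 3521, 3704, 3908 in Het against 3651, 4336, 3803 in KO, a log2 difference of 0.08 ± 0.10 (SE; adjusted p = 0.714). Ndufs1, the largest of the iron-sulfur subunits, gave 0.08, Ndufs3 0.06 and Ndufv2 0.06, while Ndufs8 gave -0.06 and Ndufs7 -0.13. The groups overlapped for all 6. Some signs changed with the probe set: the others of Ndufv2 gave -0.07 and -0.02, and the other of Ndufs7 0.01. The 5 others of Ndufs8 ran from -0.14 to 0.07.

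The 28 tested accessory subunits of complex I, which surround the core, had a median of -0.13, and 24 of them were negative. Ndufc1, a small subunit of the membrane arm, was the lowest, at 3333, 3858, 3980 in Het against 2652, 2964, 2733 in KO. Every KO array lay below every Het array, and the log2 difference was -0.42 ± 0.10 (SE; limma, adjusted p = 0.109), with -0.30 on its other probe set. Ndufb2 read 4965, 5415, 6543 in Het against 4141, 4599, 4263 in KO (-0.37, adjusted p = 0.196), again without overlap. Ndufa12 read 8117, 7825, 10460 in Het against 6412, 7702, 6408 in KO (-0.36, adjusted p = 0.275), with KO B just below Het B. Other Ndufa12 probe sets gave -0.33, -0.29 and, on a dim one, 0.05.

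At the other end of complex I, Ndufa6 gave 0.15 ± 0.13 with overlapping groups (adjusted p = 0.605). Ndufs4, a subunit whose loss causes Leigh-like disease in mice, read 3969, 4234, 4041 in Het against 4265, 4493, 4331 in KO. The groups did not overlap, but the difference was only 0.10 ± 0.07 (adjusted p = 0.536), and its dimmer probe sets gave 0.07, 0.25 and -0.33. Ndufs5 stood apart by its spread: it read 3078, 1971, 3532 in Het against 1952, 3246, 1837 in KO. Here Het B lay with KO A and KO C, and KO B with Het A and Het C, so the interval of its difference ran from -1.07 to 0.48. Ndufb4 and Ndufa4l2 were not tested, at intensities of 4.58 to 4.85 and 3.27 to 3.34 on the 6 arrays. Another 10 probe sets named for these families carry several symbols and were not used.

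Complex II oxidises succinate in the citric acid cycle and is the only complex with no subunit encoded in mitochondria. Of its 4 genes, all tested, 0 passed. Sdhb, the iron-sulfur subunit, read 5101, 6186, 6170 in Het against 6558, 7930, 7199 in KO, all KO arrays above all Het arrays (log2 0.31 ± 0.12, SE; limma, adjusted p = 0.245). Sdha, the flavoprotein, read 3794, 4897, 4743 in Het against 4579, 4485, 4305 in KO, a difference of 0.00 ± 0.12.

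The anchors Sdhc and Sdhd hold the heme and the ubiquinone site of complex II in the membrane. Sdhd read 5094, 5367, 4642 in Het against 3349, 4024, 3494 in KO, the largest difference among the probe sets that represent the 78 tested genes (-0.48 ± 0.11, SE; limma, adjusted p = 0.0935). All KO arrays lay below all Het arrays. This probe set belongs to the class that can cross-hybridise, and the other Sdhd probe set, at 1550, 2020, 1802 in Het against 1484, 1804, 1671 in KO, gave only -0.11 with overlap. Sdhc read 4039, 3631, 4056 in Het against 2819, 3464, 3174 in KO (-0.31 ± 0.11, adjusted p = 0.202), without overlap, and its other probe set gave -0.17. Neither anchor passed the test.

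Sdhd and the subunit Ndufa4 are reported targets of the hypoxia-induced microRNA miR-210 in human cells. The mouse sequence is shown because mature microRNAs depend on Dicer; its seed, bases 2 to 8, is in capitals (RefSeq, GRCm38.p6, chr7:141221407-141221428, minus strand).
mmu-miR-210-3p: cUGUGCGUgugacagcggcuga
Neither reported target was higher in KO: Sdhd was as above, and Ndufa4 read 6092, 7368, 7689 in Het against 6544, 7492, 6126 in KO (log2 -0.07, 95% interval -0.39 to 0.26). The microRNA itself was not measured.

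Complex III moves electrons from ubiquinol to cytochrome c. Of its 8 genes taken by symbol, all tested, 0 passed, 3 were positive and 5 negative, and the median was -0.10. Cytochrome c1 (Cyc1) falls outside the chosen symbols and was listed with the electron carriers (-0.06). The Rieske iron-sulfur protein Uqcrfs1, a catalytic subunit, read 3959, 4442, 4309 in Het against 5269, 6092, 6034 in KO. Every KO array was higher, by 1.37-fold on average (log2 0.45 ± 0.10, SE; 95% interval 0.21 to 0.69; limma, adjusted p = 0.0847). Uqcrc1 and Uqcrc2, the large core proteins that face the matrix, gave 0.14 and 0.04 with overlapping groups.

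The 5 small subunits of complex III had a median of -0.23 and negative values, from -0.29 to -0.02. Uqcrh, the hinge protein that helps cytochrome c dock, read 25296, 25329, 25514 in Het against 20849, 20480, 21108 in KO. The arrays of each group lay close together and the groups did not overlap (-0.29 ± 0.07, adjusted p = 0.101). With an intensity trend and robust variance estimation in limma its adjusted p was 0.0424. The other Uqcrh probe set gave a smaller difference in the main fit (-0.16, limma, adjusted p = 0.321). Uqcr11 gave -0.25 and Uqcrq -0.23 with overlap. Uqcrb gave -0.19 on its brighter probe set and -0.44 on a dimmer one. Uqcr10 read 1886, 2116, 2326 in Het against 1898, 2402, 1953 in KO (-0.02).

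The promoters just upstream of the start sites of these contrasting members of complexes II and III are shown because Sdhb and Uqcrfs1 lay higher, and Sdhd and Uqcrh lower, in KO. They are the 100 bases before each start, 5′ to 3′ on the gene's strand, from RefSeq (GRCm38.p6). Capitals mark letters matching the motifs named further on: GCATGCGC, CCGGAAG or CCAAT on either strand. The coordinates are chr4:140961171-140961270 (plus strand) for Sdhb, chr9:50603850-50603949 (minus) for Sdhd, chr13:30545317-30545416 (minus) for Uqcrfs1 and chr4:116075071-116075170 (minus) for Uqcrh.
Sdhb: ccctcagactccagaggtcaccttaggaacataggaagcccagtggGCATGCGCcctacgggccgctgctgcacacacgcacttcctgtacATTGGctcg
Sdhd: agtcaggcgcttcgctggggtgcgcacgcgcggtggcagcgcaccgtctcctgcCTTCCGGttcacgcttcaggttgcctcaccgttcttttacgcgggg
Uqcrfs1: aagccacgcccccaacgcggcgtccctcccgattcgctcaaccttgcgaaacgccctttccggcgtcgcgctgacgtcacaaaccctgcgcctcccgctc
Uqcrh: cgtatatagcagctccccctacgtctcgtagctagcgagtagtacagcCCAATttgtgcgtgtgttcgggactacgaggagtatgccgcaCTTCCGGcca
Within these 100 bases the ETS letters stand in Sdhd and Uqcrh, and none of the searched letters in Uqcrfs1. The Sdhb window also holds the ETS letters, and the Sdhd window those of estrogen-related receptors, both after the start and outside the stretch shown.

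**Figure D2:**
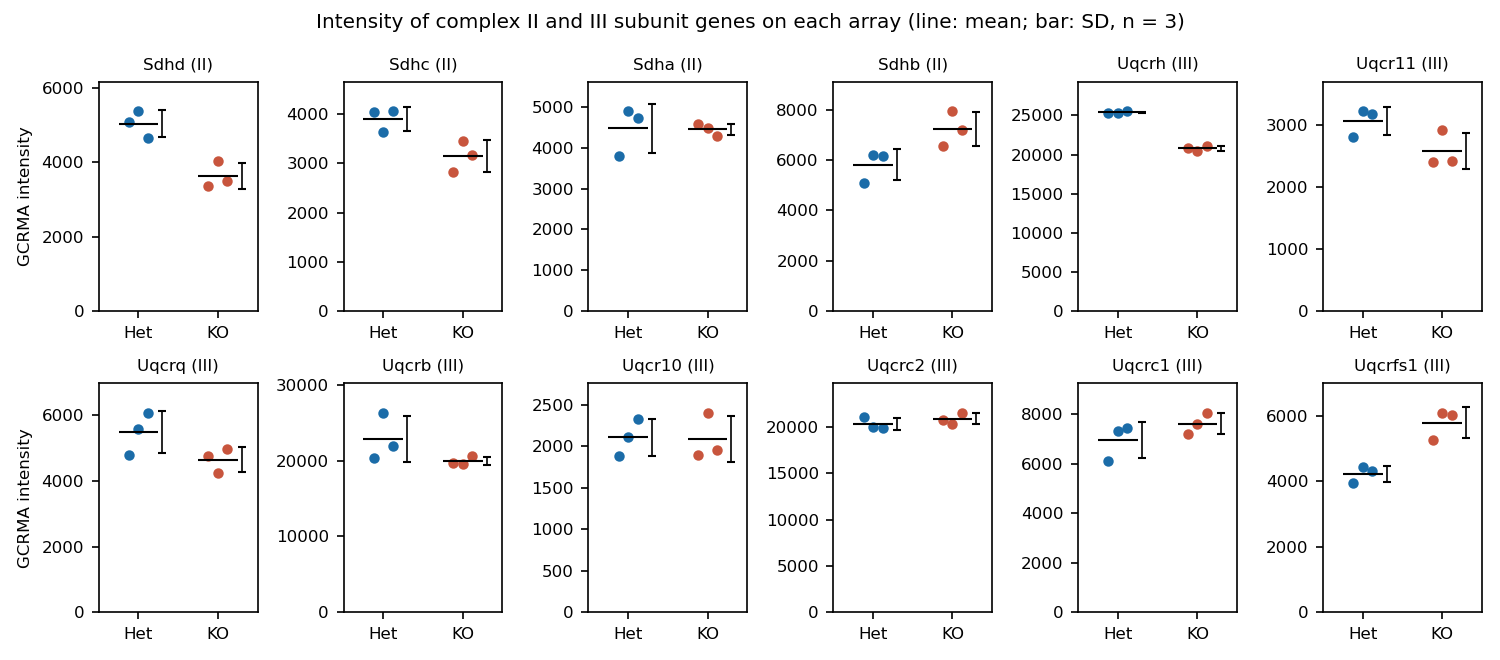
GCRMA intensity on each array for the 4 genes of complex II and the 8 of complex III (points: arrays; line: group mean; bar: SD, n = 3), with each axis starting at 0. Sdhb and Uqcrfs1 have all KO points above the Het points, and Sdhd, Sdhc and Uqcrh have all of them below.

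Complex IV is built around mitochondrially encoded subunits, and its nuclear subunits adjust and stabilise them. Of 15 tested genes 0 passed, 10 were negative and the median was -0.08. Cox7a2l, a relative of Cox7a2 that links complexes III and IV into supercomplexes, was the lowest, at 12436, 11980, 12260 in Het against 9447, 8991, 10094 in KO. The groups did not overlap (log2 -0.36 ± 0.08, SE; 95% interval -0.56 to -0.17; limma, adjusted p = 0.0865). Its 3 probe sets gave -0.36, -0.35 and -0.34, so this difference did not depend on the probe set used. Cox6c read 22677, 23216, 26826 in Het against 19770, 21652, 18849 in KO (-0.27, adjusted p = 0.246), without overlap, and -0.08 on its other probe set.

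Cox7c had the highest difference of complex IV, on a dim probe set. It read 364, 354, 267 in Het against 435, 455, 443 in KO (0.45 ± 0.14, adjusted p = 0.168), and an even dimmer probe set gave 0.51. Cox5a and Cox5b, which sit on the matrix side of the oxidase, gave 0.08 and 0.12 with overlapping groups. All 5 tested Cox5b probe sets were positive. Cox4i1, the ubiquitous form of the subunit through which ATP inhibits the oxidase, read 24862, 26572, 27372 in Het against 24218, 25913, 26104 in KO (-0.05). Its 95% interval of -0.25 to 0.15 bounds any change well inside 2-fold.

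Several complex IV subunits exist as isoform pairs, and the tissue-restricted forms gave dim probe sets in both genotypes. The muscle and heart form Cox6a2 read 52.7 to 62.8 on the 6 arrays, Cox7a1 23.4 to 33.4 and Cox8b 7.42 to 8.12. The lung form Cox4i2 read 113 to 124, and the testis forms Cox6b2, Cox8c and Cox7b2 read 74.2 to 189, 93.1 to 139 and 5.51 to 6.29. All of these lay below the median of the tested probe sets on every array, while Cox6a1 read 36723 to 44100, Cox7a2 14941 to 17370, Cox6b1 14695 to 21419 and Cox8a 2473 to 3367. Brightness of different probe sets is not a ratio of transcripts, so no level of one form is set against the other. Cox8b and Cox7b2 were too dim to be tested.

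Within the isoform pairs no form changed with genotype by this test. Cox6a1 gave -0.10, Cox6a2 -0.08, Cox7a1 -0.23, Cox7a2 0.03, Cox6b1 -0.19, Cox8a 0.05, Cox8c -0.19 and Cox4i2 -0.04, all with overlapping groups. Cox6b2 read 131, 74.2, 189 in Het against 89.7, 134, 83.4 in KO, with an interval of -1.23 to 0.65. It thus had the same order as Ndufs5, with Het B the lowest of Het and KO B the highest of KO. The summed muscle markers (7 genes) were 167 to 178 in Het and 153 to 172 in KO.

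Complex V couples proton flow through a membrane ring to ATP synthesis in its F1 head. Of its 17 genes, all tested, 0 passed, 12 were negative and the median was -0.10. The beta subunit Atp5b, which holds the catalytic sites, read 16434, 19841, 18145 in Het against 20571, 22437, 21478 in KO, all KO arrays above all Het arrays (0.25 ± 0.10, SE; limma, adjusted p = 0.254). The alpha subunit Atp5a1 read 13425, 16020, 14284 in Het against 16203, 16301, 17775 in KO (0.20, adjusted p = 0.335), again without overlap, though its other tested probe sets gave 0.03 and -0.07. The gamma subunit Atp5c1, the rotating shaft, gave 0.05, with -0.21 on a dim probe set.

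The small subunits at the foot of the F1 head had negative values. Atp5d, the delta subunit, read 10387, 10394, 10694 in Het against 8520, 9082, 8969 in KO, without overlap (-0.24 ± 0.07, adjusted p = 0.152), and Atp5e, the epsilon subunit, gave -0.26 with overlap. In the peripheral stalk, which keeps the head from turning, Atp5j gave -0.25 without overlap, Atp5pb -0.03 and Atp5h 0.02. Atp5o, the stalk subunit that grips the head, read 11844, 9553, 12474 in Het against 8241, 10431, 8142 in KO (-0.34 ± 0.15, adjusted p = 0.311). Its other probe set gave -0.05. KO B lay above Het B in the brighter one.

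The membrane ring of complex V is made of the c subunit, and 3 genes encode precursors of the same mature protein. They gave unequal values: Atp5g1 read 4237, 4736, 5177 in Het against 3125, 4351, 3692 in KO (-0.35 ± 0.15, adjusted p = 0.287). Atp5g2 read 7435, 8876, 8365 in Het against 6681, 7164, 7249 in KO (-0.22, adjusted p = 0.288), without overlap. Atp5g3 read 25140, 31646, 29746 in Het against 27698, 27850, 27756 in KO (-0.05, 95% interval -0.31 to 0.21). The intervals of the 3 genes overlap. Of the other membrane subunits Atp5j2 was the lowest, at 22936, 24846, 26647 in Het against 19985, 21472, 19297 in KO (-0.29, adjusted p = 0.178), and Atp5l, Atp5k, Atp5md and Atp5mpl lay between -0.12 and 0.04. The inhibitor of ATP hydrolysis by the synthase, Atpif1, read 6624, 5326, 7006 in Het against 3709, 5458, 3589 in KO (-0.59, adjusted p = 0.204), with KO B again among the Het values.

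Sorted by role, the medians differed in sign, while single genes did not sort cleanly. The 16 genes of the complex I core, the complex II matrix pair, the Rieske and core proteins of complex III and the F1 head had a median of 0.06, and the other 62 tested subunits a median of -0.13. Of the 16 genes 4 were negative (Ndufs7, Ndufs8, Atp5d and Atp5e), and of the other 62 genes 11 were positive, Cox7c among them. This grouping was drawn after the values were seen, left out Cyc1 (-0.06) and was not tested. The medians kept their order in all 17 alternative settings, from 0.01 against -0.18 with quantile normalization to 0.12 against -0.12 without KO A. These settings reuse the same arrays and are no separate support.

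The level of the subunits varied between arrays of a group about as much as between groups. Centred on each gene's mean over the 6 arrays, the median over the 78 tested subunits was -0.03, 0.04 and 0.12 on Het A, B and C and -0.09, 0.02 and -0.07 on KO A, B and C. The groups overlapped, since KO B lay above Het A. The same order held for complex I alone, with -0.02, 0.04 and 0.13 for Het and -0.09, 0.03 and -0.09 for KO. KO B was the highest KO array for 56 of the 78 subunits, beside 46.3% of all genes, and Het C the highest Het array for 47, beside 41.5%.

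The array controls of transcript integrity shared the highest array of each group with the subunits, but not the order over all 6 arrays. Within each group the Gapdh ratios had the same order of arrays as the subunit medians. The beta-actin ratios had that order in KO only. The log2 ratio of the 3′ to the 5′ probe set of beta-actin was 0.77, 0.58 and 0.95 on Het A, B and C and 0.50, 1.10 and 0.59 on KO A, B and C. That of Gapdh was 0.41, 0.46, 0.58 in Het against 0.30, 0.67, 0.39 in KO. Het C and KO B, the highest arrays of their groups for the subunits, thus had the highest ratios of their groups. Het B, in contrast, had a lower beta-actin ratio than Het A and a higher subunit level, and KO B had the highest ratio of all arrays while its subunit level was below those of Het B and Het C. With that beta-actin measure added to the limma model, an alternative chosen after seeing the data, 0 subunits passed, the median difference was -0.09 and 55 of 78 were negative. The Gapdh ratio was not used as a covariate, and the part of RNA quality in the result was not tested further.

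**Figure D3:**
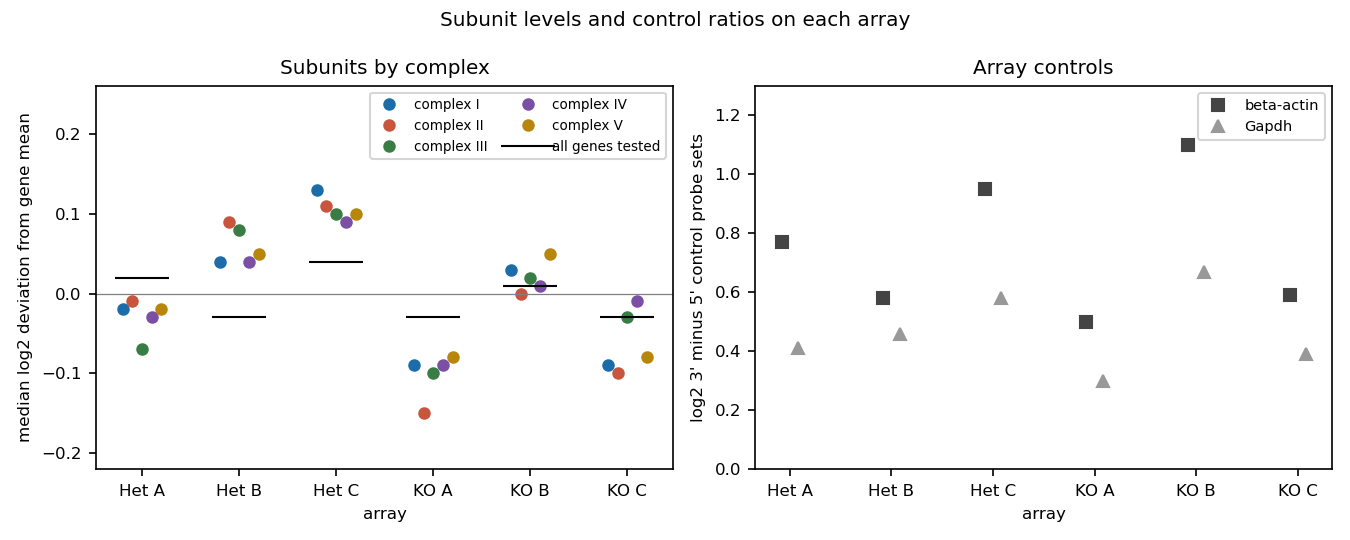
Left, the median log2 deviation from each gene's mean over the 6 arrays, for the tested subunits of each complex (points) and for all genes tested (black bars), by array. Right, the log2 ratio of the 3′ to the 5′ control probe sets of beta-actin and Gapdh on the same arrays; Het C and KO B are the highest of their groups in both ratios, at 0.95 and 1.10 for beta-actin.

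The promoters of the subunit genes were searched for letters of factors known for respiratory genes, in the window from 250 bases before to 50 after the start. Of the 82 genes 67 had an entry in the RefSeq table (GRCm38.p6), with 72 promoters among 32851. The NRF1 letters GCATGCGC stood in 12.5% of subunit promoters and 2.71% of all, and the ETS letters CCGGAAG, bound by GABPA, in 23.6% and 8.86%. The YY1 letters AAGATGGCG stood in 8.33% and 1.40%, those of estrogen-related receptors, TCAAGGTCA, in 2.78% and 0.423%, and the NF-Y letters CCAAT in 40.3% and 37.4%. Both strands were searched, none of the motifs contains another, and a match is a description and no site. Tested subunits with the NRF1 letters had a median difference of -0.02 (9 genes) and those without of -0.10 (55 genes). With the ETS letters it was -0.10 (17 genes) and without -0.07 (47 genes). For YY1 it was -0.19 (6 genes) against -0.09 (58 genes), for estrogen-related receptors -0.27 (2 genes) against -0.10 (62 genes) and for NF-Y -0.08 (26 genes) against -0.10 (38 genes). These differences were not tested.

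The regulators named by these motifs had small differences too. Nrf1 read 969, 1323, 1084 in Het against 870, 1150, 1354 in KO (log2 -0.01), Gabpa gave -0.01 and Esrra 0.02. The coactivator Ppargc1b gave 0.04, and Ppargc1a was too dim to be tested, at 11.5 to 14.1. Of 25 listed regulators of mitochondrial biogenesis 21 were tested, 0 passed and the median was -0.16. At an unadjusted p under 0.05 (limma) 1 was positive (4.76%) and 4 negative (19%), beside 10.7% and 11.6% of all genes. The smallest p were those of Mterf3, which acts on mitochondrial ribosomes and transcription (-0.40, adjusted p = 0.0865), and of Twnk, the mitochondrial helicase (-0.58, adjusted p = 0.106).

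The genes that build and serve the respiratory chain were measured beside its subunits. Among 44 tested assembly factors of 48 listed, 0 rose and 1 fell. Cox20, a chaperone of a mitochondrially encoded complex IV subunit, read 8924, 9032, 9003 in Het against 6343, 6242, 5828 in KO (log2 -0.55 ± 0.07, SE; limma, adjusted p = 0.0364). The call was lost in 10 of 17 alternatives, among them every array left out and the letter as a block, with adjusted p between 0.021 and 0.158 over all 17. The median of the assembly factors was -0.16. At an unadjusted p under 0.05, 3 were positive (6.82%) and 12 negative (27.3%), beside 10.7% and 11.6% of all genes. All KO arrays lay below all Het arrays for 16 of the 44 (36.4%, beside 16.8% of all genes). Of 26 tested electron carriers and exchangers 0 passed, with a median of 0.02. Here 3 were positive (11.5%) and 2 negative (7.69%) with an unadjusted p under 0.05, beside the same shares of all genes. Coq5, of ubiquinone synthesis, gave -0.31 and the glycerol phosphate dehydrogenase Gpd2 1.07 (adjusted p = 0.119 and 0.133). Cytochrome c itself, Cycs, gave 0.05.

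Most mitochondrial translation and import genes had negative differences, and none passed the test. Of 76 mitochondrial ribosomal protein genes 66 were negative, with a median of -0.21. All KO arrays lay below all Het arrays for 34 of them (44.7%, beside 16.8% of all genes). By limma 0 passed. With an unadjusted p under 0.05, 0 were positive and 29 negative (38.2%), beside 10.7% and 11.6% of all genes. Mrps6 gave -0.71 and Mrps21 -0.61 (adjusted p = 0.0659 and 0.0662). Of 24 tested import genes 0 passed (0 positive and 8 negative, or 33.3%, with an unadjusted p under 0.05), with a median of -0.17. Tomm7, of the outer membrane pore, gave -0.60 and Timm21 -0.51 (adjusted p = 0.058 and 0.0607).

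In the citric acid cycle 1 of 18 tested genes rose and 0 fell. Idh2, the NADP-dependent isocitrate dehydrogenase, read 637, 571, 619 in Het against 1200, 1388, 1434 in KO (log2 1.14 ± 0.10, SE; limma, adjusted p = 0.0222). The adjusted p stayed under 0.05 in 10 of 17 alternatives and ran from 0.0157 to 0.146; the call was lost with the letter as a block, without both B arrays and without any single array other than KO A. The list's median was 0.02. At an unadjusted p under 0.05, 4 genes were positive (22.2%) and 0 negative, beside 10.7% and 11.6% of all genes. Of 10 tested redox genes Gpx1, a glutathione peroxidase, fell from 11603, 13371 and 14658 to 7582, 7502 and 8331 (-0.75 ± 0.11, adjusted p = 0.0448), and 9 did not pass. This call held in 6 of 17 alternatives (adjusted p 0.0298 to 0.192) and in none that left out an array or used the block. Of 15 tested fatty acid oxidation genes 0 passed, and the median was 0.01. With an unadjusted p under 0.05, 0 were positive and 2 negative (13.3%), beside the same shares of all genes. Eci1 gave -0.82 (limma, adjusted p = 0.0748) and Echs1 -0.36. Of the mitochondrially encoded subunits ND5 was measured under a single symbol, at 24067 to 32540 on the 6 arrays (-0.14).

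**Figure D4:**
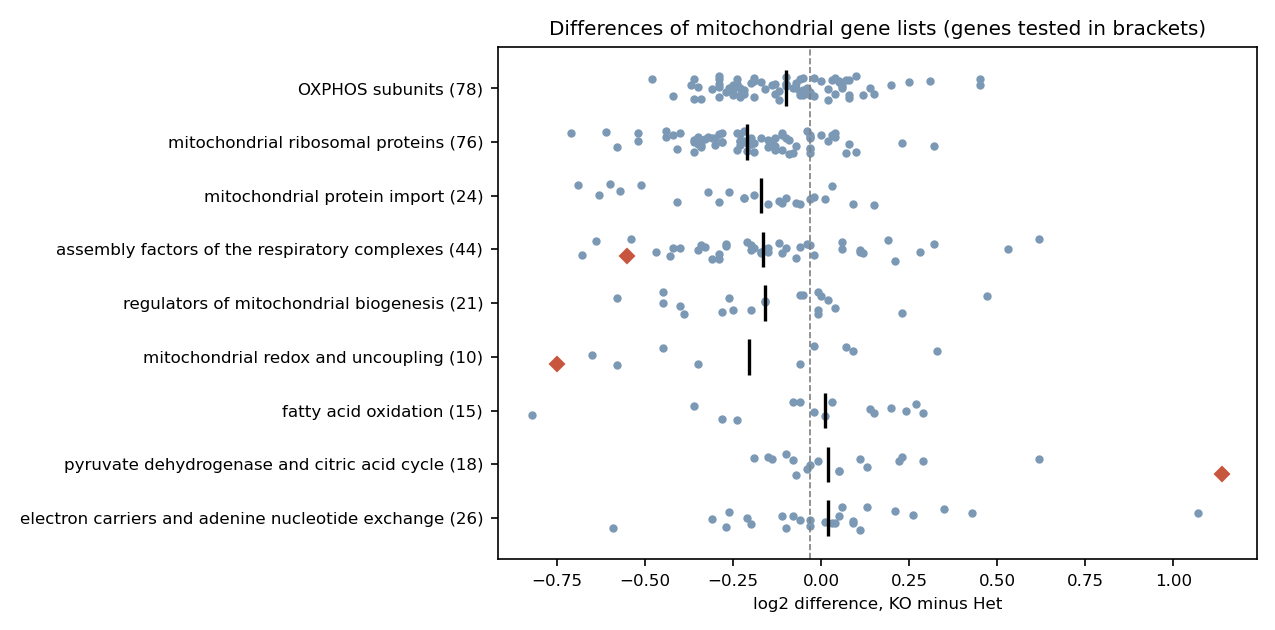
Log2 difference between KO and Het for each tested gene of the subunits and of 8 other mitochondrial lists (points; small vertical offsets only separate them), with the list median as a black line and the median of all genes as a dashed line. Diamonds mark the 3 genes past the test, Cox20 and Gpx1 on the left and Idh2 on the right.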

How the data were processed

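The values are probe set intensities, deposited by the authors after GCRMA normalization per the labels, which subtracts a sequence-based background, normalizes between arrays and summarises probes; the version used is not given in the sources. They are on a linear scale, so log2 was taken. Of 45101 probe sets 64 control probe sets and 1 lacking values were dropped, and 29507 having log2 above 4 on at least 3 arrays were tested with limma 3.58.1 in R 4.3.3 (two-sided, no covariates, Benjamini-Hochberg, threshold 0.05). Symbols came from the platform annotation: 34958 probe sets had 1 symbol, 932 several and 9211 none. All 82 members matched a gene of GRCm38.p6 by identifier. Members and lists were chosen with earlier results of these data known. Genes named per complex are the 3 highest and 3 lowest differences, isoform pairs and untested members, and per other list up to 3 genes past the test or the 2 smallest p; any other gene was picked with its values in view. The fit was tested on simulated data. The design description names no pairing, so the letters were not treated as pairs in the main fit. Deviations of arrays with the same letter from their group means correlated at 0.28, -0.17 and 0.01 for A, B and C. With 3 arrays per group these values cannot settle whether the letters mark pairs. Alternatives were the letter as a block, other filters, normalizations, offsets, variance estimation, weights per array, averaging each gene's probe sets, the beta-actin ratio as a covariate and leaving out arrays.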

Additional observations from a re-analysis of the deposited data

How the results depend on the processing

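The count of subunits past the test was 0 in 16 of 17 alternatives, and with an intensity trend and robust estimation it was 1 (Uqcrh). Where few or no probe sets passed at all, as given next, a count of 0 subunits was nearly fixed beforehand. Those settings are no check of it. The count over all probe sets was 525, and it was 957 with array weights, 0 with the replicate block on the letter, 0 without both B arrays and between 0 and 176 when a single array was left out (limma; dropping Het A gave 3, dropping Het B 18, dropping Het C 2, dropping KO A 176, dropping KO B 8 and dropping KO C 0). The median difference of the subunits stayed negative in all of them, from -0.14 without Het A to -0.06 without Het C. That of complex III ran from -0.18 to -0.05 and that of complex IV from -0.12 to -0.02 with an array left out. Without both B arrays, the arrays with the most B, NK and myeloid marker signal, the median of all genes was -0.06. Signs turned for some named genes. With quantile normalization Sdha gave -0.03, Uqcrc2 -0.03, Cox7a2 -0.06 and Atp5c1 -0.02. With the mean of the probe sets of a gene Atp5c1 gave -0.08, and without both B arrays Cox5a gave -0.01, Cox8c 0.00 and Atp5g3 0.02. With an array left out, Sdha ran from -0.11 to 0.07, Cox7a2 from -0.03 to 0.07, Cox8a from -0.09 to 0.13, Atp5g3 from -0.14 to 0.02 and Cox6b2 from -0.65 to 0.02. The largest size among the subunits was Sdhd in most settings, but Cox6b2 with array weights (0.52), without Het B (0.65) and without both B arrays (0.87), Uqcr10 with the mean of the probe sets (1.32), Cox7c without Het A (0.53) and Uqcrfs1 without KO A (0.52). The cause was not tested. Counts of 0 over all probe sets stood beside 5365 (block), 4227 (without KO C) and 5274 (without both B arrays) at an unadjusted p under 0.05. The beta-actin covariate was chosen after seeing the data, and the mean-of-probe-sets setting gives no count over probe sets.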

Other observations

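The 82 subunit genes had 157 tested probe sets in all, of which 0 passed the test, beside 525 of all 29507. At an unadjusted p under 0.05 (limma) 6 were positive and 18 negative. Over all 29507 probe sets 5630 had such a p in either direction. By gene, the shares over all genes were 10.7% higher and 11.6% lower. For 47 genes more than 1 probe set was tested, and in 34 of them all had the sign of the one that stands for the gene. Uqcr10, a small subunit of complex III, is an example of probe sets that disagree in size. Its bright probe set gave -0.02, while a dimmer one read 414, 385, 1382 in Het against 314, 335, 8.499 in KO (log2 -2.65, adjusted p = 0.427). A further one, of the class that can cross-hybridise, read 600, 555, 1596 in Het against 450, 606, 131 in KO (-1.30). With the mean of the probe sets of a gene, the size of its log2 difference is 1.32, so the value of Uqcr10 rests on the choice of probe set, with Het C the highest array and KO C the lowest on both dimmer ones. Ndufab1, the mitochondrial acyl carrier protein that also sits in complex I, gave -0.05 on its bright probe set and -0.54 on a dimmer one (450.5, 320.2 and 376.5 for Het, 241.1, 342.4 and 216.1 for KO; adjusted p = 0.263). For Ndufa3 a dim probe set gave 0.50, at 83.3, 79.1, 86.7 in Het against 95.3, 120, 141 in KO, against -0.20 on the bright one.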
